A study of Mus with 9 samples.

Results

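The genes described here are 10 that mark inhibitory interneurons of the hippocampus, the cells that use GABA as their transmitter. They are the peptide precursors Sst, Npy, Vip, Cck and Tac1, the GABA genes Gad1, Gad2 and Slc32a1, the calcium-binding protein gene Pvalb and the extracellular matrix gene Reln. Their probe sets were found by gene symbol, 1 for each of the 10, among the 22206 on the array. Hippocampal RNA was measured on 9 Clariom S Mouse arrays, 3 for each of 3 groups of male mice that were 16 weeks old at the outset, before acclimatization and dosing. SAMR1, a senescence-resistant strain, and SAMP8, a senescence-prone strain with early memory loss, received vehicle, which is saline in the sample records and water in the methods. The third group was SAMP8 given trigonelline (TG), a plant alkaloid, orally each day for 30 days (5 mg/kg), with dosing continued through 8 days of water maze testing, which all groups underwent. SAMR1 is a related strain and not SAMP8 without its mutations, so a difference between the strains is a difference of the whole genetic background. The free-text description attached to each sample record is about a macrophage cell line, so it was not used, and the series text speaks of duplicate RNA samples where the records list 3 per group.

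GABA is made from glutamate by glutamic acid decarboxylase, which has one form from Gad1, the main source of GABA in the cell body, and one from Gad2, which sits mostly at nerve terminals. Slc32a1 encodes the transporter that loads GABA into synaptic vesicles. Hippocampal interneurons also carry peptides or binding proteins that define their subtypes: somatostatin cells contact distal dendrites of pyramidal cells, parvalbumin cells and many cholecystokinin cells contact their cell bodies, and many VIP cells contact other interneurons.

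The deposited values used are the authors' group averages as log2 signal, 1 number per gene and group. They carry no standard deviation and no value per array, so no test was run, and whether any difference below exceeds the spread between mice was not tested. Differences are given on the log2 scale, and a difference of 1.5-fold or more (0.58 on that scale) was counted as past the limit. The share of all probe sets past the same limit is given with the counts over the 10 genes as their background. Both tables give identical SAMP8 averages for 22206 of 22206 probe sets, so the strain comparison and the TG comparison share the same 3 SAMP8 arrays. A SAMP8 average that is high or low by chance therefore moves the 2 differences in opposite directions. Across the whole array the medians of the averages were 6.09 for SAMR1, 6.04 for SAMP8 and 6.07 for the treated group, with a lowest average of 2.39. All 30 averages of the 10 genes, from 6.66 to 12.78, lay above these medians, and no filter on signal was applied. Probes of different genes respond differently, so levels were compared between groups within a gene and not between genes. In RNA from whole tissue, fewer cells of a type and less RNA per cell cannot be told apart.

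The labelled tissue was checked by its defining markers. The excitatory neuron gene Slc17a7, the vesicular glutamate transporter of hippocampal and cortical cells, stood at 18.02, 18.12 and 18.11 in SAMR1, SAMP8 and TG-treated SAMP8, and Neurod6 at 14.86, 14.85 and 14.88. Camk2a, the kinase subunit of excitatory neurons, was listed at 19.93 in every group, which is the highest average in the tables. Whether a higher signal could have been registered was not tested, so its equal values cannot show that the groups were alike. The 12 excitatory markers were not all level, since 8 were higher and 3 lower in SAMP8 than in SAMR1. Past the limit, 2 were higher, Spink8 (by 1.30) and Slc17a6 (7.48, 8.14 and 8.21), which was also listed as a thalamic marker. With TG, 6 were higher and 5 lower, and 1 was lower past the limit. Of the interneuron transcription factors, Dlx1 stood at 7.82, 7.98 and 7.93, and Lhx6, which marks interneurons from the medial ganglionic eminence, at 5.00, 5.09 and 5.17. The cholinergic genes Chat and Slc5a7, taken as septal markers, lay between 2.70 and 3.99, but others of the same list did not, since Zic1 stood at 10.91, 11.47 and 9.56 and Trpc4 at 9.50, 9.44 and 8.94.

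**Figure D1:**
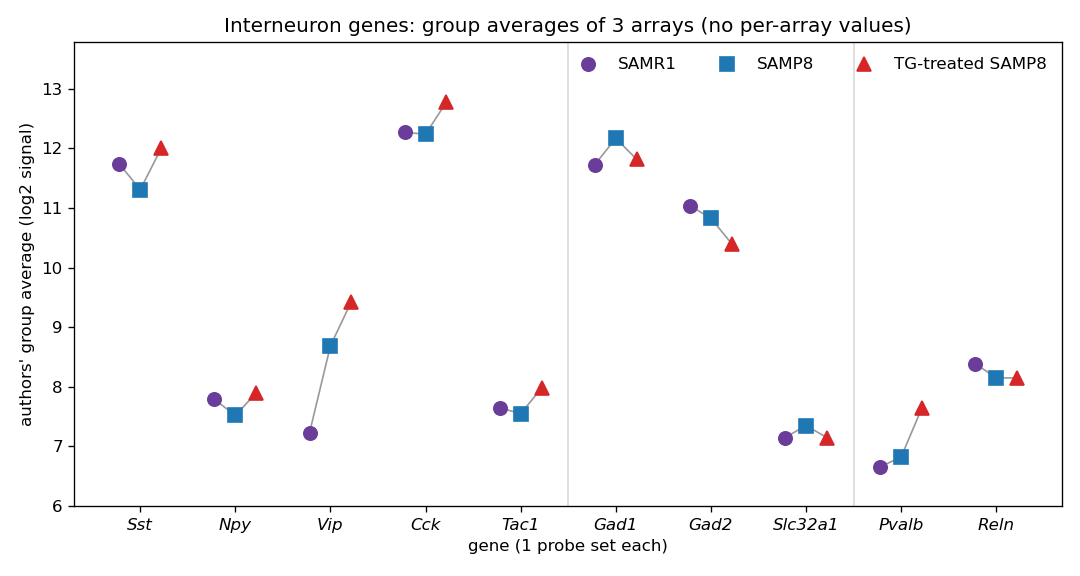
Group averages (log2 signal, y axis) of the 10 genes (x axis) in SAMR1 (circles), SAMP8 (squares) and TG-treated SAMP8 (triangles), each point the authors' average of 3 arrays, with no error bars because none are given. Vip steps up from 7.23 to 8.69 to 9.43, and the 5 peptide precursors and Pvalb are highest in TG-treated SAMP8, whereas the 3 GABA genes are not.

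Vip, the precursor of vasoactive intestinal peptide, differed most among the 10 genes. SAMR1 averaged 7.23, SAMP8 8.69 and TG-treated SAMP8 9.43. SAMP8 was thus higher than SAMR1 by 1.46, or 2.75-fold, and only 0.7% of all probe sets differed as much in either direction. TG-treated SAMP8 was higher again by 0.74, or 1.67-fold, a size that 3.7% of all probe sets reached, so the treated group stood 4.59-fold above SAMR1. Vip was the only one of the 10 genes past the limit in both the strain comparison and the TG comparison, in the same direction each time. The gene lies on chromosome 10 from 5639193 to 5647617 (all positions are in build GRCm38).

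Sst encodes somatostatin, the peptide of dendrite-targeting interneurons, and lies on chromosome 16 from 23889573 to 23891342. SAMR1 averaged 11.74, SAMP8 11.31 and TG-treated SAMP8 12.00. SAMP8 was lowest, 0.43 below SAMR1 (a difference of -0.43, 1.35-fold), which is short of the limit. With TG the average was higher by 0.69, or 1.61-fold, and 4.9% of all probe sets differed by as much. The treated group exceeded SAMR1 by 0.26.

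Npy, the precursor of neuropeptide Y, a peptide that dampens excitation and is often made in somatostatin cells, followed the same order of groups at a smaller size. Its averages were 7.79, 7.52 and 7.90 in SAMR1, SAMP8 and TG-treated SAMP8, with differences of -0.27 between the strains and 0.38 with TG. Of all probe sets, 23.3% differed as much with TG. The gene lies on chromosome 6 from 49822710 to 49829507.

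Cck encodes cholecystokinin, which is made by a class of basket cells and also by pyramidal cells, so its signal is not that of interneurons alone. SAMR1 averaged 12.27, SAMP8 12.24 and TG-treated SAMP8 12.78. The strains differed by -0.03, and 92.8% of all probe sets differed by at least as much. TG-treated SAMP8 was higher than SAMP8 by 0.54, or 1.45-fold, a size that 10.6% of all probe sets reached. Tac1, the precursor of substance P and neurokinin A, stood at 7.65, 7.55 and 7.98, with differences of -0.10 and 0.43. The second of these was reached by 18.6% of all probe sets. Cck lies on chromosome 9 from 121489824 to 121495694 and Tac1 on chromosome 6 from 7555061 to 7562978.

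The 5 peptide precursors were all higher in TG-treated SAMP8 than in SAMP8, by 0.38 to 0.74 with a median of 0.54, whereas 50.0% of all probe sets were higher and their median was 0.01. Between the strains, 4 of the 5 were lower in SAMP8 and Vip alone was higher, where 49.0% of all probe sets were lower. In Sst, Npy, Cck and Tac1 the SAMP8 average was the lowest and the treated average lay above SAMR1, an order found in 14.0% of all probe sets. This order takes no account of size. The strain differences behind it were -0.43 for Sst, -0.27 for Npy, -0.10 for Tac1 and -0.03 for Cck, all short of the limit. That of Npy was reached by 40.8% of all probe sets and that of Cck by 92.8%, so a shared dip in SAMP8 cannot be read from it.

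Pvalb encodes parvalbumin, the calcium-binding protein of fast-spiking basket cells, and lies on chromosome 15 from 78191112 to 78206400. SAMR1 averaged 6.66, SAMP8 6.82 and TG-treated SAMP8 7.65. The strains differed by 0.16. The difference with TG was 0.83, or 1.78-fold, the largest of the 10 genes in that comparison, and 2.2% of all probe sets differed as much. Against SAMR1 the treated group was higher by 0.99, or 1.99-fold.

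The GABA genes ran the other way with TG. Gad1, on chromosome 2 from 70561303 to 70602014, averaged 11.73 (SAMR1), 12.17 (SAMP8) and 11.82 (TG-treated SAMP8). It was higher in SAMP8 than in SAMR1 by 0.44 and lower in the treated group than in SAMP8 by a difference of -0.35, which left it 0.09 above SAMR1. Gad2, on chromosome 2 from 22621015 to 22693877, stood at 11.04, 10.83 and 10.40. It was lower at each step, by -0.21 and by -0.43, and the treated group was 1.56-fold below SAMR1 (a difference of -0.64). Slc32a1, on chromosome 2 from 158607260 to 158615747, had averages of 7.15, 7.35 and 7.15, so the treated group and SAMR1 were listed at the same value. None of the 3 was past the limit in the strain or the TG comparison, and the differences with TG ran from -0.43 to -0.20 in a table where 48.3% of probe sets were lower. Differences of these sizes were common. With TG, 26.9% of all probe sets differed as much as Gad1 in either direction, 18.6% as much as Gad2 and 50.5% as much as Slc32a1.

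Reln encodes reelin, a large secreted protein that acts through the receptors Lrp8 and Vldlr and, in the adult hippocampus, is made by interneurons and by Cajal-Retzius cells. SAMR1 averaged 8.39, SAMP8 8.15 and TG-treated SAMP8 8.15, with a difference of -0.24 between the strains and 0.00 with TG. The gene is the longest of the 10 and lies on chromosome 5 from 21884454 to 22344705. Of 6 markers taken for Cajal-Retzius cells, Trp73 stood at 4.18, 3.52 and 4.22, past 1.5-fold between the strains (-0.66) and with TG (0.70). Its mean signal was above that of only 16.2% of all probe sets. For Lhx1 (between 2.96 and 3.12) and Lhx5 this share was 1.0% and 1.3%. Calb2 and Ndnf were also listed as interneuron markers. The list's median differences were -0.06 between the strains and -0.18 with TG, and cannot stand for these cells alone.

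**Figure D2:**
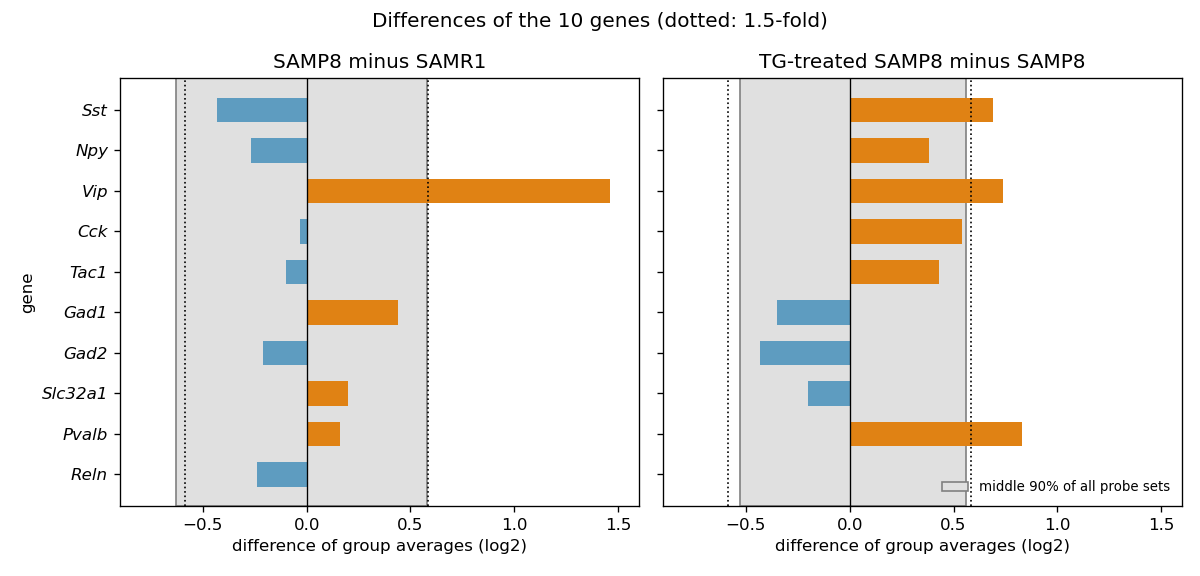
Differences of the group averages (log2, x axis) for the 10 genes (y axis), SAMP8 minus SAMR1 on the left and TG-treated SAMP8 minus SAMP8 on the right, with orange bars for higher, blue for lower, dotted lines at 1.5-fold and the middle 90% of all probe sets shaded. Vip is past 1.5-fold on the left, and Sst, Vip and Pvalb on the right. No bar carries an error, since only averages are given.

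Counted over the 10 genes, 1 (Vip) was higher in SAMP8 than in SAMR1 past 1.5-fold and 0 were lower, against 5% and 6.08% of all probe sets. The median difference of the 10 was -0.07, and that of all probe sets was 0.00. With TG, 3 genes (Pvalb, Vip and Sst) were higher past 1.5-fold and 0 were lower, where 4.48% of all probe sets were higher and 3.74% lower. The median of the 10 was 0.41 against 0.01 for all probe sets. Between TG-treated SAMP8 and SAMR1, 2 genes (Vip and Pvalb) were higher and 1 (Gad2) was lower past the limit, with backgrounds of 5.62% and 4.83%, and the medians were 0.18 for the 10 and -0.01 for all.

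A limit of 1.2-fold in either direction was passed by 4 of the 10 genes between the strains, where the background was 40.8%, and by 8 of 10 with TG, where it was 38.2%. The 8 were the 5 peptide precursors and Pvalb, all higher, and Gad1 and Gad2, both lower. Between TG-treated SAMP8 and SAMR1 the count was 5 of 10 against 40.5%. A limit of 2-fold was passed by Vip alone between the strains (background 2.31%), by 0 genes with TG (0.815%) and by Vip alone between TG-treated SAMP8 and SAMR1 (1.85%).

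The difference with TG varied with the length of the gene across the whole array. Genomic length, the distance from its annotated start to its end, was found for 97.2% of the probe sets. Sorted into 20 classes by this length, the shortest class had a median difference with TG of 0.10 and the longest one of -0.14, and the Pearson correlation over 21574 probe sets was -0.25 on the log2 length. Between the strains the medians ran the other way, from -0.11 in the shortest class to 0.09 in the longest, and the correlation was 0.16. These correlations are across genes measured on the same arrays, which are not independent. The peptide precursors are short genes, from 1.77 kb (Sst) to 8.43 kb (Vip), while Gad1 spans 40.71 kb, Gad2 72.86 kb and Reln 460.25 kb. Slc32a1, at 8.49 kb, is as short as Vip and was lower with TG by a difference of -0.20, where the median of its length class was 0.04 and 20.8% of that class were as low.

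After subtraction of the median of each gene's length class, the differences with TG were 0.59 for Sst, 0.34 for Npy, 0.70 for Vip, 0.50 for Cck, 0.39 for Tac1 and 0.82 for Pvalb. Those of the GABA genes became -0.30 for Gad1, -0.36 for Gad2 and -0.24 for Slc32a1, and that of Reln became 0.14. The signs of the 9 genes other than Reln were those found without the subtraction, and 3 genes were still past 1.5-fold. Of the probe sets in its own length class, 1.3% were as high as Pvalb, 2.5% as high as Vip, 5.9% as high as Cck and 7.4% as high as Sst. The difference between the strains also varied with signal, with medians between -0.11 and 0.14 over 20 signal classes, and less the median of its class Vip differed by 1.32 and Sst by -0.55 between the strains. Transcript length and RNA quality per array were not analysed here, and their part in these differences was not tested.

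**Figure D3:**
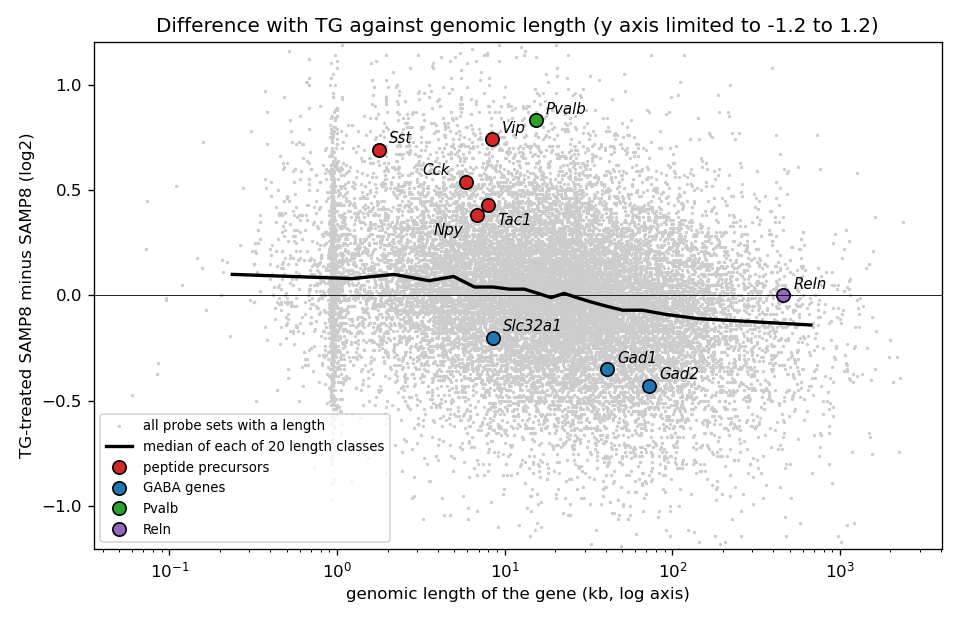
Difference between TG-treated SAMP8 and SAMP8 (log2, y axis) against genomic length in kb (log x axis) for all probe sets with a length (grey), the median of 20 length classes (black line) and the 10 genes (coloured). The line runs from 0.10 down to -0.14, the 5 peptide precursors and Pvalb lie above it by 0.34 to 0.82, and the 3 GABA genes lie below it.

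Genes of GABA uptake and breakdown accompanied the GABA genes in direction with TG. The 5 genes listed here (the transporters Slc6a11, Slc6a12 and Slc6a13, the GABA transaminase Abat and the succinic semialdehyde dehydrogenase Aldh5a1) had lower averages in TG-treated SAMP8 than in SAMP8, by differences of -0.42 to -0.12 with a median of -0.15, and 0 were past 1.5-fold. Abat stood at 13.92 in SAMR1, 14.39 in SAMP8 and 14.08 with TG, and Slc6a11, an astrocytic GABA transporter, at 11.82, 11.96 and 11.54. Thus 5 of 5 were lower with TG, where 48.3% of all probe sets were lower. Between the strains 3 of the 5 were higher in SAMP8, where 49.5% of all probe sets were higher. The 5 were chosen with earlier results of these data known, so these counts are not a test. Gad1, Gad2 and Slc32a1 were already seen to be lower with TG, so adding them to make 8 genes gives no independent count. The differences are small, since the median of the 8 with TG was -0.26. Slc6a12 lay near the bottom of the array (3.19, 3.12 and 3.00), and Slc6a11 (118.65 kb) and Abat (108.14 kb) are long genes, of length classes with medians of -0.11 and -0.09 with TG.

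The machinery that processes peptides went with the precursors in direction with TG only. Of 10 genes for prohormone convertases, their partners and granins, 9 were higher with TG, where 50.0% of all probe sets were. The 1 that was lower was Pam, the peptide-amidating enzyme. The median was 0.30 and the range -0.08 to 0.50, and 0 passed 1.5-fold. Between the strains 7 were higher in SAMP8 and 2 lower, with a median of 0.26. The precursors differed from them in that comparison, with 4 of the 5 lower in SAMP8 and a median of -0.10. Pcsk1n, an inhibitor of the convertase PC1/3, was past the limit there, with averages of 7.98, 8.79 and 9.13 in SAMR1, SAMP8 and TG-treated SAMP8. Pcsk1, the convertase itself, was also past it (7.06, 7.73 and 7.95), while the granin Chga was lower in SAMP8 (10.29, 9.62 and 9.89). Against SAMR1, 4 of the 10 were higher past 1.5-fold in the treated group, where 5.62% of all probe sets were, and the median was 0.48.

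Other peptide precursors did not share the pattern as a group. Among 28 further neuropeptide genes, a list drawn up after the values of the 10 were seen and sharing 6 genes with the interneuron markers below, 16 were higher and 12 lower with TG, with a median of 0.07. Only 7 of the 28 had a mean signal above the array's median, and of these 3 were higher and 4 lower. Past 1.5-fold and higher with TG were Ucn (5.32 to 6.32), Vgf (7.85 to 8.50), Adcyap1 (4.63 to 5.25) and Crh (5.06 to 5.66), 4 of 28 against 4.48% of all probe sets, and Gnrh1 (3.72 to 3.03) was lower. Penk, the enkephalin precursor found in some interneurons, was like Vip in the strain comparison only, at 8.03 (SAMR1), 9.31 (SAMP8) and 9.17 (TG). Cort, a somatostatin-related peptide of interneurons, stood at 9.29, 9.24 and 9.69.

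Receptors of the peptides and of reelin showed no common direction. Of 16, 6 were higher and 9 lower with TG, with a median of -0.04, and between the strains 8 were higher and 8 lower. Vldlr, a reelin receptor, was the one past 1.5-fold with TG, at 10.45 (SAMR1), 10.76 (SAMP8) and 9.77 (TG). The other reelin receptor, Lrp8, stood at 7.78, 7.87 and 7.82, and the adaptor Dab1 at 12.98, 12.91 and 12.94. In the strain comparison the neuropeptide Y receptor Npy2r (8.41, 9.25 and 8.80) and the somatostatin receptor Sstr2 (7.04, 7.77 and 7.77) were higher in SAMP8 past the limit.

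**Figure D4:**
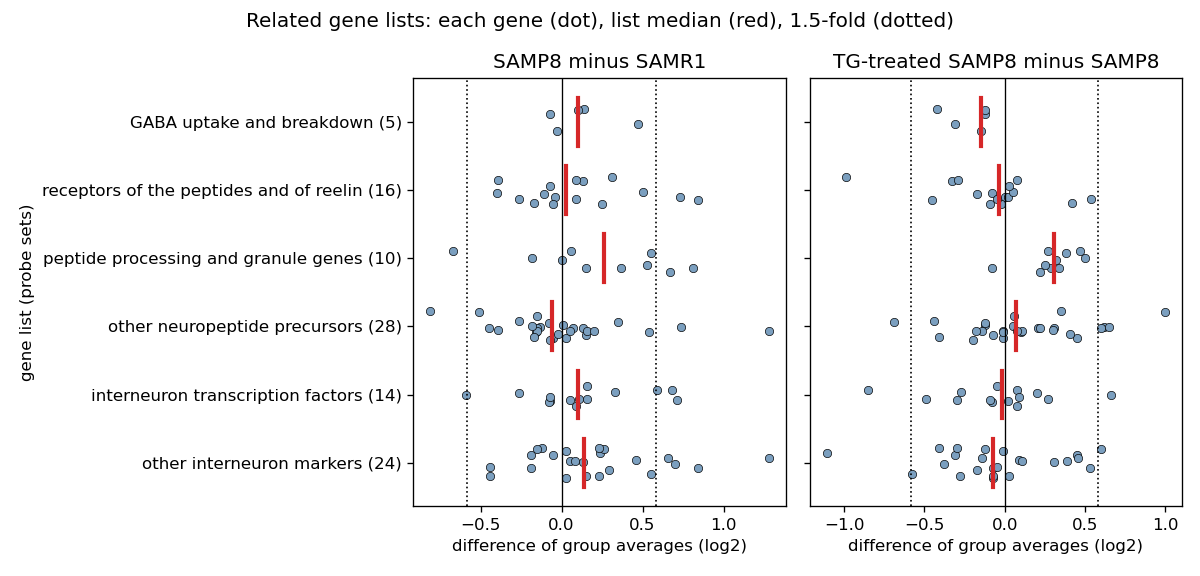
Differences of the group averages (log2, x axis) for the genes of 6 related lists (y axis, number of probe sets in brackets), SAMP8 minus SAMR1 on the left and TG-treated SAMP8 minus SAMP8 on the right, each dot a gene, red bars the list median and dotted lines 1.5-fold. With TG the peptide processing genes centre on 0.30 and the genes of GABA uptake and breakdown on -0.15, and the other 4 medians lie between -0.07 and 0.07.

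Markers of interneuron identity had list medians near 0 with TG. Of 14 interneuron transcription factors, 7 were higher and 7 lower, with a median of -0.02 and mean levels of 7.27, 7.40 and 7.34 in the 3 groups in that order. Past 1.5-fold in the strain comparison and in the TG comparison were Npas1, lowest in SAMP8 (7.02, 6.43 and 7.09), and Prox1, highest in SAMP8 (11.26, 11.85 and 11.00), a factor also made by dentate granule cells. Sox6 (7.84, 8.55 and 8.46) and Satb1 (11.31, 11.99 and 12.07), both of somatostatin and parvalbumin cells among other types, were higher in SAMP8 than in SAMR1. Of 24 other interneuron markers, 9 were higher and 15 lower with TG, with a median of -0.07. Calb1 (10.28, 10.98 and 10.60) was past the limit between the strains, and Calb2 stood at 10.16, 9.97 and 9.66. Which cells these signals came from was not tested, and Calb2 was also listed as a Cajal-Retzius and a thalamic marker. Nos1, the neuronal nitric oxide synthase, was the one past the limit and lower with TG (9.36, 9.60 and 8.49). Syt2, a synaptotagmin of parvalbumin terminals, was higher in SAMP8 than in SAMR1 (6.37, 7.03 and 7.49), and the fast-spiking potassium channel gene Kcnc1 stood at 12.29, 12.58 and 12.41.

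Markers of other cells and of neighbouring tissue were set beside these values, since Vip, Cck and Tac1 are also abundant in neocortex and Tac1, Penk and the Gad genes in striatum. Of 10 striatal markers, 4 were higher and 6 lower with TG, with a median of -0.05 and a mean level of 6.86, 6.87 and 6.72 in SAMR1, SAMP8 and TG-treated SAMP8, with Drd1 at 4.95, 4.86 and 5.06. Drd2 was the one past 1.5-fold with TG and lower (4.29, 4.63 and 3.67), while Foxp1 and Pde10a, of the same list, lay between 12.33 and 12.76 in all groups. Over 9 probe sets of 8 neocortical markers the mean levels were 9.18, 9.37 and 9.24 and the median with TG was 0.01, with 5 higher and 4 lower. Within that list Lamp5, which is also made by neurogliaform interneurons, was higher at each step (8.73, 9.57 and 10.10), short of 1.5-fold with TG. The list had 0 genes higher and 2 lower past that limit with TG, against 4.48% and 3.74% of all probe sets. The 2 were Rasgrf2 (a difference of -0.59) and 1 of the 2 probe sets of Rorb (8.27 to 7.13), the other standing at 9.14 and 9.15. Over the 12 probe sets of 10 thalamic markers the mean level was 7.70, 8.10 and 7.67, and Prkcd (11.03 to 9.53), Zic1 (11.47 to 9.56) and Plekhg1 (9.19 to 8.13) were lower with TG. Of 8 septal and cholinergic markers, 6 were lower with TG, with mean levels of 5.80, 5.79 and 5.41. The endothelial and mural list had mean levels of 7.46, 8.16 and 7.62, with Acta2 (5.52, 7.71 and 5.54) and Slco1a4 (11.06, 11.62 and 10.62) past the limit and lower with TG. The meningeal list had mean levels of 7.08, 7.23 and 6.77, with 4 genes higher and 4 lower with TG. The 4 lower ones were past the limit, among them Igf2 (7.09, 8.67 and 6.78) and Ogn (7.81, 8.53 and 7.43), and 0 of the higher ones were. The part of tissue composition in the differences of the 10 genes was not tested.

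Among the remaining cell types, the excitatory neuron list had medians of 0.17 between the strains and 0.01 with TG. The astrocyte list had medians of 0.15 and -0.03, the microglia list 0.00 and -0.17, and the choroid plexus list 0.31 and -0.11. The microglia median of 0.00 covers 4 genes higher and 4 lower in SAMP8 than in SAMR1. Past 1.5-fold, 3 were higher and 1 lower, against 5% and 6.08% of all probe sets. Higher were Aif1 (5.71, 7.22 and 6.78), P2ry12 (11.17, 12.03 and 11.60) and Itgam (7.10, 7.80 and 7.45). C1qa (5.02, 4.41 and 5.08) was lower. In the choroid plexus list 3 genes were higher and 5 lower with TG, and its genes moved in opposite ways. Ttr (8.45, 9.33 and 10.05) was higher past 1.5-fold both between the strains and with TG. Kl (6.17, 6.84 and 6.05) was higher past it in SAMP8 and lower past it with TG. The oligodendrocyte list had medians of -0.05 and 0.34, and 8 of its 10 genes were higher with TG, with Mag (6.66 to 7.37) and Sox10 (5.39 to 6.08) past 1.5-fold. Gfap, of astrocytes, stood at 11.08, 12.03 and 11.92 and Aqp4 at 12.13, 12.25 and 12.30. Their part in the values of the 10 interneuron genes was not tested.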

How the data were processed

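RNA was hybridized to Clariom S Mouse arrays, and the authors summarized the intensities by SST-RMA in the Transcriptome Analysis Console. The 2 deposited tables list, per the file headers, the authors' group averages as log2 signal on annotation of mm10, with 2 decimals, together with the authors' fold changes, p-values and adjusted p-values, which were not used here. Arrays were grouped by their record titles. Precision is limited by 3 arrays per group.

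Differences of averages were computed with Python 3.11.15, numpy 2.4.6 and pandas 2.3.3 and counted at 1.5-fold. No test was possible from averages alone. Alternatives were limits of 1.2-fold and 2-fold, centring on the median, leaving out the 25% of probe sets of lowest signal, probe sets with 1 symbol, and subtraction of medians of 20 signal classes or, chosen after seeing the data, 20 length classes. Lengths and positions came from RefSeq on GRCm38. The counting was tested on simulated data. The genes and lists were chosen with earlier results of these data known. By rule, the 10 genes were named, and from 17 gene lists the first 2 markers and genes past 1.5-fold could be, of which some are given. Others (such as Abat, Slc6a11, Pam, Cort, Foxp1, Pde10a, Trpc4, Slc6a12, Kcnc1, Lrp8, Dab1, Vgf, Ucn and Adcyap1) were named after their values were seen. One listed gene is not reported here, and its list was counted without it.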

Additional observations from a re-analysis of the deposited data

How the results depend on the processing

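Most results changed little under the other settings, except where the limit itself was moved. At 1.2-fold the counts of higher and lower genes were 2 and 2 between SAMP8 and SAMR1 (1 and 0 at 1.5-fold), 6 and 2 with TG (3 and 0), and 4 higher between TG-treated SAMP8 and SAMR1 (2). At 2-fold they were 0 higher with TG, and 1 higher and 0 lower between TG-treated SAMP8 and SAMR1 (2 and 1). Centring, the filter on low signal, the restriction to 1 symbol, and the medians of signal or length classes left every count within 1.5 times. Subtracting the median of the signal class added Cck, giving 4 genes higher with TG. The median of the 10 genes with TG ran from 0.36 to 0.45 over these settings, and that between the strains from -0.17 to -0.05. Single genes moved by 1.1-fold or more in 2 cases between the strains (signal classes) and 1 case with TG (Reln, length classes), and 0 genes past 1.5-fold changed sign. No paired analysis was possible because the tables hold 1 average per group, and for the same reason leaving out each replicate was not run. Without values per array, the spread between mice is not known here and a difference has no error.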
